A study of Mus musculus with 8 samples.

Results

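The SLC25 family of mitochondrial solute carriers, with the uncoupling proteins that belong to it, was examined in the cerebellum of 4 mice. Members were the probe sets whose only gene symbol in the platform annotation starts with Slc25a or Ucp followed by a digit. This rule gave 46 of 18193 named genes, read by 96 of 45137 probe sets. The Affymetrix 430A array held 68 of them from 35 genes, the 430B array held 28 from 19 genes, and 8 genes were on both. The rule used names and no measured value, but the family and the pair of Slc25a51 probe sets described first were singled out with results of these arrays known.

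The mice were males that had never received alcohol. Mice 48 and 51 were Inbred Long Sleep (ILS) animals and mice 55 and 56 were Inbred Short Sleep (ISS) animals, so that each strain had 2. Selective breeding for how long a mouse sleeps after ethanol produced these strains, and the study compares their baseline expression. All 4 mice had free access to food and water for 14 days after moving between institutions, and their age is not given in the labels. Total RNA of each cerebellum was measured on both arrays. Strain is the only difference between the groups that the labels give.

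The inner mitochondrial membrane is closed to most metabolites, and SLC25 carriers move nucleotides, phosphate, amino acids, carboxylates and cofactors across it. Each carrier folds from repeats of a common unit, and most exchange one solute for another. In neurons they feed respiration, carry reducing equivalents in the malate-aspartate shuttle and return ATP to the cytosol.

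Signals are linear intensities scaled to the same trimmed mean on every array. A log2 fold change is ILS minus ISS, so that positive values are higher in ILS, and its error is the standard error (SE) from limma. A probe set was called where the limma p-value, adjusted by Benjamini-Hochberg over all tested probe sets of the chip, was below 0.05. Tests covered the brighter part of each chip, 11313 probe sets of 430A and 11256 of 430B. With 2 mice per strain the number of arrays limits the precision. Strain and scan order cannot be told apart on these chips, nor can strain and fluidics station on 430A. In bulk tissue, fewer cells of a type and less RNA per cell cannot be told apart.

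The family's clearest strain differences were at Slc25a51 and Slc25a3 on the 430A array. At Slc25a51, the mitochondrial NAD+ carrier in human cells, one probe set was higher in ISS and another was higher in ILS. Slc25a3, the phosphate carrier that supplies ATP synthase, was higher in ILS. These were 3 called members of 48 tested (6.25%), against 2.93% of all tested 430A probe sets. Of the 3, 2 were higher in ILS, where 1.61% of all tested probe sets were, and 1 was higher in ISS, where 1.33% were. On 430B 0 of 18 tested members were called by limma, against 0.48% of all (0.195% were higher in ILS and 0.284% in ISS), while 3 of the 18 had an unadjusted p below 0.05.

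Slc25a51 probe set 1433816_at had signals of 870.5 and 908 in ILS mice 48 and 51 and of 1458 and 1561 in ISS mice 55 and 56. Both ISS mice lay above both ILS mice, and the strains did not overlap. The means were 889 ± 26.6 in ILS and 1509 ± 72.7 in ISS (SD, n = 2), a signal 1.70-fold higher in ISS. The log2 fold change was -0.76 ± 0.13 (SE), with a limma adjusted p of 0.0247. The call was lost without ILS mouse 48 (adjusted p = 0.0778) and without ISS mouse 56 (adjusted p = 0.0852).

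Probe set 1454712_at of the same gene ran the other way. Its signals were 1145 and 1092 in ILS mice 48 and 51 and 638 and 756 in ISS mice 55 and 56. Both ILS mice lay above both ISS mice, again without overlap. The means were 1119 ± 37.5 in ILS and 697 ± 83.8 in ISS (SD, n = 2), a signal 1.61-fold higher in ILS, and the log2 fold change was 0.69 ± 0.14 (limma adjusted p = 0.0452). This value lay close to the threshold, and the call was lost without ILS mouse 48 (adjusted p = 0.138), ILS mouse 51 (0.0687) or ISS mouse 55 (0.106), with the arrays set to equal medians (0.0543), with no filter (0.0729), without the intensity trend (0.0650) and with adjustment over both chips (0.0633).

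**Figure D1:**
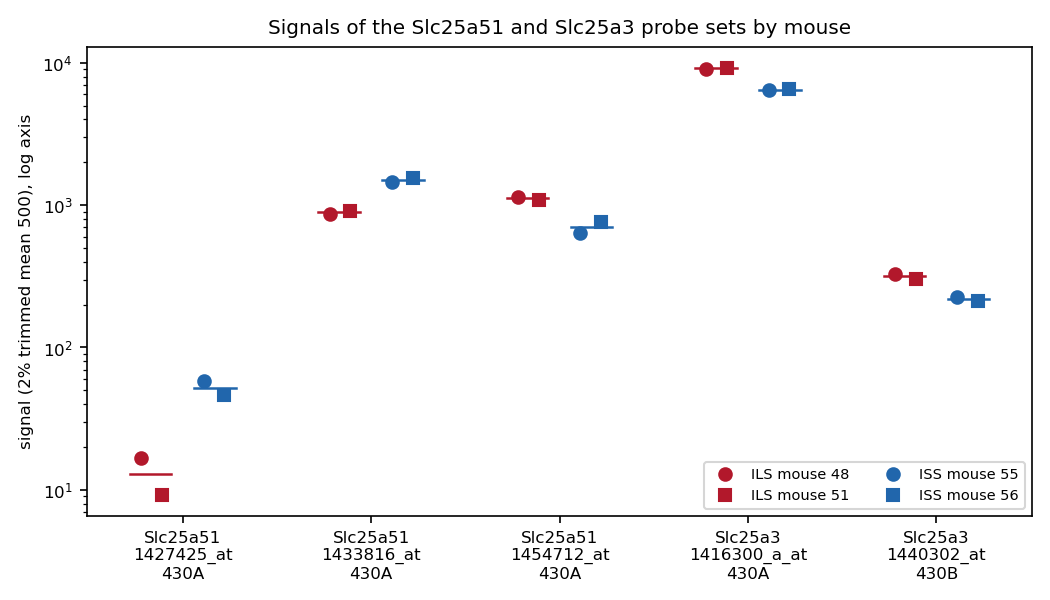
Signal intensity (log axis) of each mouse at the Slc25a51 and Slc25a3 probe sets, by strain; points are single mice and short lines are strain means. At Slc25a51 the ISS mice are higher at 1433816_at and the ILS mice at 1454712_at, and at Slc25a3 1416300_a_at the ILS mice are higher.

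The difference between both Slc25a51 probe sets was then tested directly, with the log2 ratio of 1433816_at to 1454712_at in each mouse. That ratio was -0.40 and -0.27 in ILS mice 48 and 51 and 1.19 and 1.04 in ISS mice 55 and 56. Both ISS ratios lay above both ILS ratios, without overlap. The strain effects differed by -1.45 ± 0.19 on the log2 scale (SE), with a limma adjusted p of 0.00304 over 5211 pairs of probe sets of 1 gene. The exact two-sided permutation test over the 4 mice gave p = 0.333, the smallest it can give with 2 against 2. The difference ranged from -1.52 to -1.38 over the settings run, with adjusted p of 6.7e-05 to 0.0272, and was called in each. A shift common to all probe sets of an array cancels in this ratio.

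A further Slc25a51 probe set, 1427425_at, was dim. Its signals were 16.8 and 9.20 in ILS mice 48 and 51 and 58.0 and 46.1 in ISS mice 55 and 56. All 4 lay below the median of their arrays, so no fold is given, and the probe set was not tested. With no filter it was not called (limma adjusted p = 0.120). The files do not say which stretch of the transcript each probe set reads.

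Slc25a51 was 1 of 4 genes of 430A with called probe sets in both directions, among 21 genes with 2 or more called. The others, picked after their values were seen, were Adi1, Ptp4a2 and Smim10l1. Within the family, 3 of 48 probe set pairs on 430A were called (6.25%), against 3.93% of all pairs of the chip. These came from Slc25a51, Slc25a5 and Slc25a39, 1 pair each. Pairs of a gene share probe sets, and 28 of the 48 belonged to Slc25a5. On 430B limma called 0 of 9 family pairs, against 0.375% of all pairs.

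Slc25a3 probe set 1416300_a_at had signals of 9121 and 9155 in ILS mice 48 and 51 and 6447 and 6537 in ISS mice 55 and 56. The ILS mice were higher without overlap, and the mice of each strain were nearly equal. The means were 9138 ± 24.1 and 6492 ± 63.5 (SD, n = 2), a signal 1.41-fold higher in ILS. The log2 fold change was 0.49 ± 0.08 (limma adjusted p = 0.0253). The call was lost without ILS mouse 48 (adjusted p = 0.0518), without ISS mouse 56 (0.0887), with equal array medians (0.0633), with no filter (0.0827) and without the intensity trend (0.0946).

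The 430B array measured Slc25a3 with probe set 1440302_at, whose signals were 330.2 and 303 in ILS mice 48 and 51 and 226 and 212 in ISS mice 55 and 56. Here too the ILS mice were higher without overlap, and both ISS mice were under their array medians. The signal was at least 1.34-fold higher in ILS, a bound set by the array medians. It was not called (log2 fold change 0.53 ± 0.30, limma adjusted p = 0.673). Both chips read the same 4 mice and are not independent samples.

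**Figure D2:**
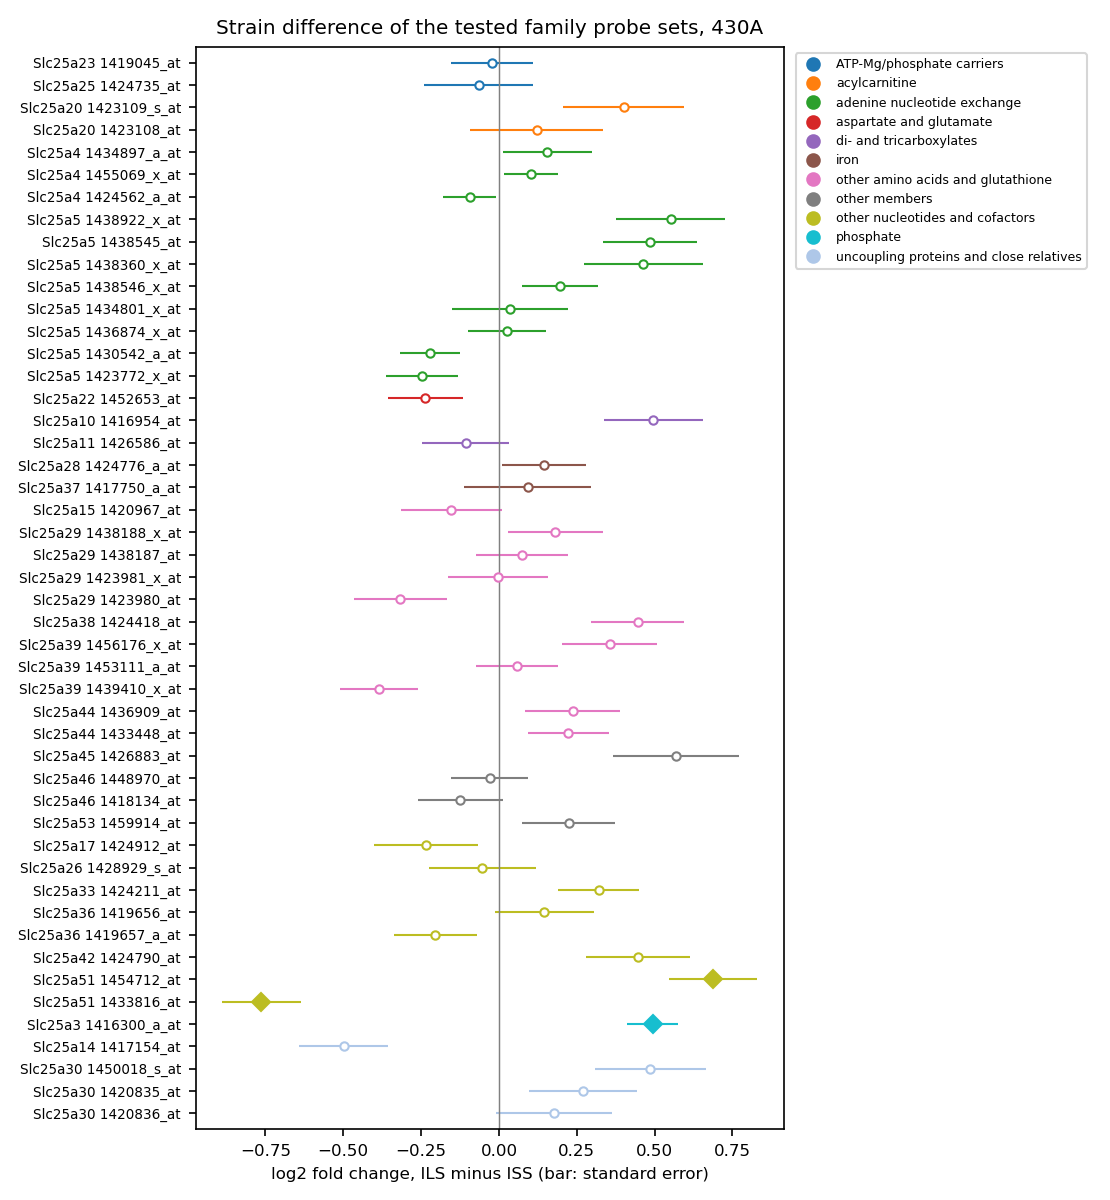
Log2 fold change (ILS minus ISS) of the 48 tested family probe sets on 430A, coloured by role, with bars for the SE; filled diamonds are called. Slc25a51 1433816_at lies farthest left at -0.76 and 1454712_at farthest right at 0.69.

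The adenine nucleotide translocators exchange cytosolic ADP for mitochondrial ATP. Slc25a4, the form typical of heart and muscle, and Slc25a5 together had 11 tested probe sets on 430A. Limma called 0 of the 11, against 2.93% of all tested 430A probe sets. An unadjusted p below 0.05 was seen at 3 Slc25a5 probe sets higher in ILS and 1 higher in ISS, against 21.8% of all. Slc25a4 1424562_a_at, bright in every mouse, had signals of 8087 and 8678 in ILS mice 48 and 51 and 9203 and 8691 in ISS mice 55 and 56. The strains did not overlap, but ILS mouse 51 and ISS mouse 56 were nearly equal, and the log2 fold change was -0.09 ± 0.09 (limma adjusted p = 0.553). The gene's other tested probe sets were positive. They gave 0.10 ± 0.09 at 1455069_x_at, without overlap (limma adjusted p = 0.516), and 0.16 ± 0.14 at 1434897_a_at, with overlap (0.557).

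The 8 tested Slc25a5 probe sets did not run together, with log2 fold changes from -0.25 to 0.55, of which 6 were positive and 2 negative. At 1438922_x_at the signals were 604 and 598 in ILS mice 48 and 51 and 353 and 477 in ISS mice 55 and 56, and at 1438545_at they were 1070.4 and 992 against 821 and 660.0. Both sets were higher in ILS without overlap and were not called, with log2 fold changes of 0.55 ± 0.17 and 0.49 ± 0.15 (limma adjusted p = 0.123 and 0.120). The strain effect at 1423772_x_at lay 0.80 ± 0.18 below that at 1438922_x_at, and this pair was called (limma adjusted p = 0.0382). It was lost with quantile normalization, with no filter, without the intensity trend and without any 1 of the 4 mice. Probe sets ending in _x_at hold probes that also match other sequences, and 11 tested members of 430A were of this kind, none of them called.

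Among carriers of amino acids, Slc25a39, which imports glutathione in human cells, had 3 tested probe sets on 430A, and none was called. Probe set 1439410_x_at had signals of 2891 and 3312 in ILS mice 48 and 51 and 4391 and 3724 in ISS mice 55 and 56. The ISS mice were higher without overlap (log2 fold change -0.39 ± 0.13, limma adjusted p = 0.129), while 1456176_x_at gave 0.36 and 1453111_a_at 0.06. The difference between the first and the second was called, at -0.74 ± 0.17 (limma adjusted p = 0.0441). It was lost with quantile normalization, no filter, a filter at the 75th percentile, no intensity trend and without any 1 mouse. The mitochondrial glutamate carrier Slc25a22 gave -0.24 ± 0.12 (limma adjusted p = 0.292).

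Slc25a12, the aspartate-glutamate carrier of the malate-aspartate shuttle in brain, was measured on 430B. Its probe set 1444489_at had signals of 1036 and 886 in ILS mice 48 and 51 and 561 and 396 in ISS mice 55 and 56. The ILS mice were higher without overlap, but the log2 fold change of 1.02 ± 0.23, the largest of the tested 430B members, was not called (limma adjusted p = 0.123). The gene's other tested probe sets gave smaller values of the same sign, 0.33 ± 0.13 at 1436440_at (limma adjusted p = 0.491) and 0.17 at 1428440_at (0.783). The pair of 1428440_at and 1444489_at differed by -0.85 ± 0.22, which was not called (limma adjusted p = 0.146).

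The uncoupling protein Ucp1 carries protons across the inner membrane in brown fat, and Slc25a14, Slc25a27 and Slc25a30 are relatives found in brain and kidney. Slc25a14 had signals of 538 and 505 in ILS mice 48 and 51 and 786 and 690 in ISS mice 55 and 56 on 430A. The ISS mice were higher without overlap, and the gene was not called (log2 fold change -0.50 ± 0.14, limma adjusted p = 0.0982). With equal array medians it was called, at -0.66 (adjusted p = 0.0205).

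Slc25a27 probe set 1431201_at on 430B had signals of 328 and 413 in ILS mice 48 and 51 and 802 and 677 in ISS mice 55 and 56. The ISS mice were higher without overlap, and the log2 fold change of -1.00 ± 0.23 was not called (limma adjusted p = 0.138). The gene's other tested probe sets lay near 0, with 0.12 at 1440090_at, -0.05 at 1454230_a_at and -0.16 at 1458119_at. The strain effects at 1431201_at and 1440090_at differed by -1.12 ± 0.27, which was not called (limma adjusted p = 0.127). At Slc25a30 1450018_s_at the signal was at least 1.31-fold higher in ILS, since both ISS values lay below their array medians, and it was not called (0.49 ± 0.18, limma adjusted p = 0.165). Ucp1 was dim in all 4 mice, with signals of 4.50 to 18.4, and both Ucp3 probe sets were dim too.

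**Figure D3:**
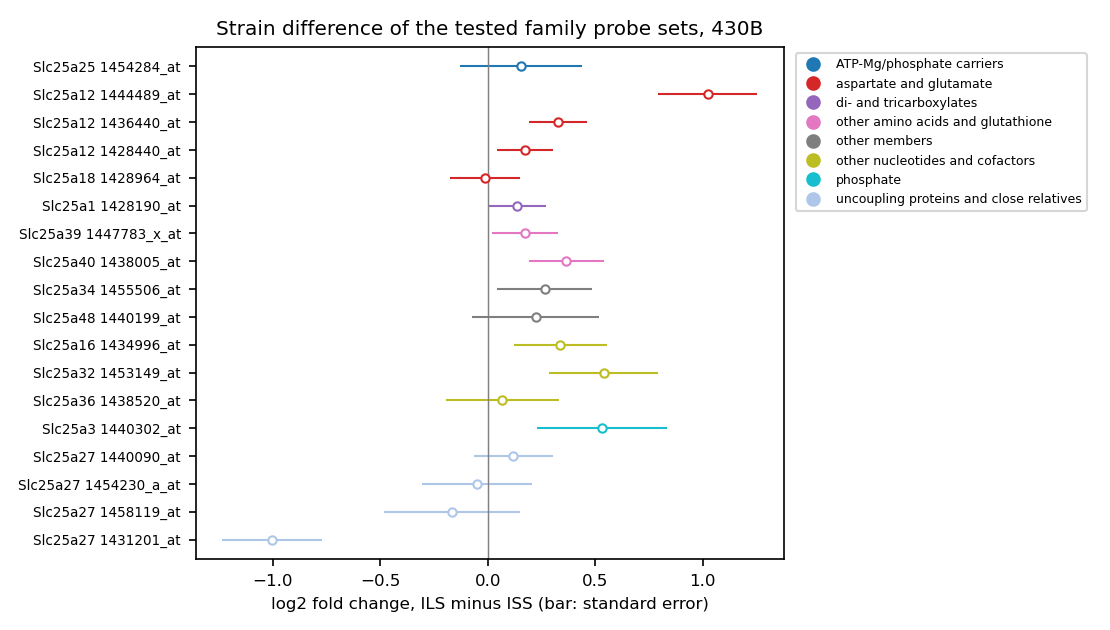
Log2 fold change (ILS minus ISS) of the 18 tested family probe sets on 430B, coloured by role, with bars for the SE; none is called. Slc25a12 1444489_at at 1.02 and Slc25a27 1431201_at at -1.00 mark the ends of the range.

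Carriers of carboxylates and fatty acids were not called on either chip. The dicarboxylate carrier Slc25a10 had signals of 631 and 588 in ILS mice 48 and 51 and 482 and 387 in ISS mice 55 and 56 at 1416954_at. The ILS mice were higher without overlap (log2 fold change 0.50 ± 0.16, limma adjusted p = 0.127). The oxoglutarate-malate carrier Slc25a11 gave -0.11 (limma adjusted p = 0.686), the citrate carrier Slc25a1 on 430B gave 0.14 (0.840), and the acylcarnitine carrier Slc25a20 gave 0.12 at 1423108_at (0.776). The other tested Slc25a20 probe set, 1423109_s_at, had signals of 242 and 261 in ILS mice 48 and 51 and 175 and 208 in ISS mice 55 and 56. Its ILS values were higher without overlap, and it was not called (log2 fold change 0.40 ± 0.19, limma adjusted p = 0.272).

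The remaining members named by the rule were not called either. Slc25a45 had signals of 333 and 295 in ILS mice 48 and 51 and 243 and 183 in ISS mice 55 and 56, higher in ILS without overlap (log2 fold change 0.57 ± 0.20, limma adjusted p = 0.155). The ATP-Mg/phosphate carriers Slc25a23 on 430A and Slc25a25 on 430B gave -0.02 (limma adjusted p = 0.941) and 0.15 (0.924 at 1454284_at). On 430A Slc25a25 1424735_at gave -0.07, with overlap (limma adjusted p = 0.859). The mitochondrial iron importer Slc25a28 gave 0.14 (0.564), and Slc25a46, an outer membrane protein of mitochondrial dynamics, gave -0.12 at 1418134_at (0.625). On 430B the folate carrier Slc25a32 gave 0.54 ± 0.25 at 1453149_at (limma adjusted p = 0.581). Slc25a40, a close relative of Slc25a39, gave 0.37 ± 0.18 (0.595), and Slc25a39 itself gave 0.17 at 1447783_x_at (0.827). Slc25a16 gave 0.34 (0.726) and Slc25a34 gave 0.26 (0.807).

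Across the 48 tested members of 430A the median log2 fold change was 0.11, beside -0.01 over all tested probe sets, and 30 were positive (48.3% of all were). The direction of that median depends on the scaling, since with equal array medians it was -0.05 and 20 were positive (28.2% of all were). There the median of all tested probe sets moved to -0.17, so that the family median lay above it under both scalings. Strains did not overlap at 31 of the 48 members (64.6%), against 54.3% of all. An unadjusted p below 0.05 was seen at 16 members (33.3%), 12 higher in ILS and 4 higher in ISS, against 21.8% of all. Of the 10 family genes with 2 or more tested probe sets on 430A, 6 had both signs. Only Slc25a51 of these was called in both directions, and the share of all genes with both signs was not counted.

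On 430B the median over the 18 tested members was 0.17, and it was 0.12 with equal array medians. There 14 of 18 were positive, against 49.9% of all, and 11 did not overlap between strains (61.1%), against 38.9% of all. The unadjusted p was below 0.05 at 3 members (16.7%), against 9.02% of all.

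**Figure D4:**
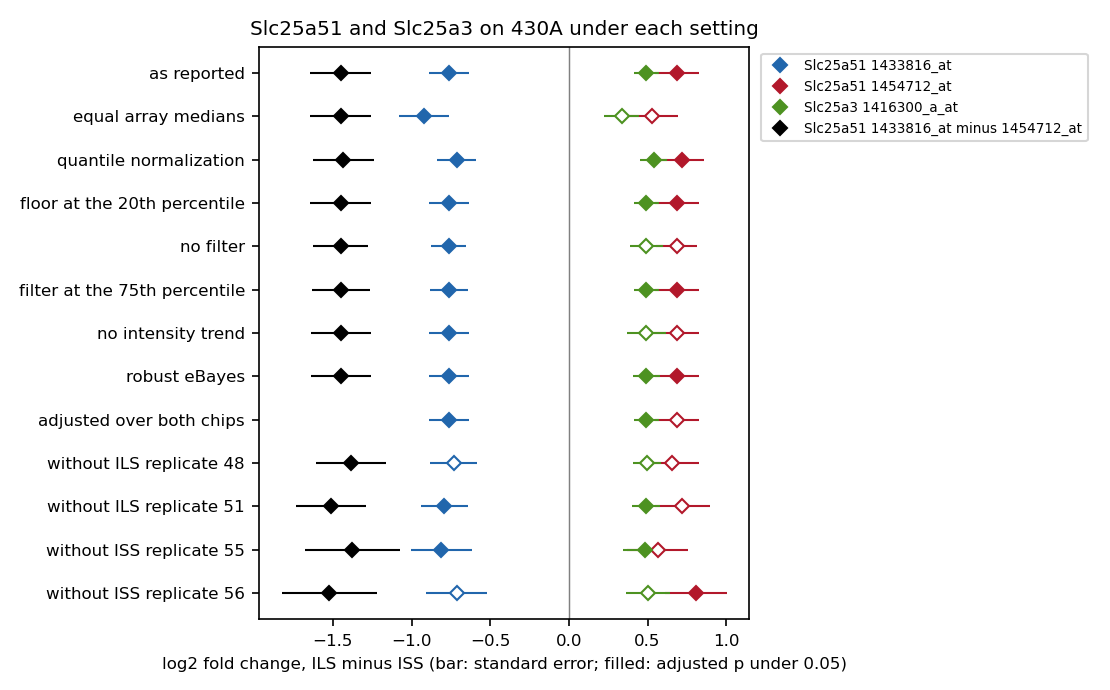
Log2 fold change (ILS minus ISS) of the called Slc25a51 and Slc25a3 probe sets of 430A, and of the Slc25a51 pair, under each processing setting, with bars for the SE; filled symbols have an adjusted p below 0.05. Slc25a51 1433816_at stays between -0.92 and -0.71 and 1454712_at between 0.53 and 0.81.

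The filter left 20 members of 430A and 10 of 430B untested, and 18 and 8 of these lay below the array medians in both strains. The widest gap among these 430B members was at Slc25a32 1429462_at, with signals of 209.8 and 202 in ILS mice 48 and 51 and 50.0 and 42.8 in ISS mice 55 and 56. The ILS values were higher without overlap, but all 4 lay below their array medians, so no fold is given. With no filter it was not called (limma adjusted p = 0.311). Slc25a44 1456465_at on 430A, picked like the former after its values were seen, was at least 1.38-fold higher in ILS, where both ISS values were dim, and was not called with no filter (0.84, limma adjusted p = 0.102).

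Outside the family, 39 genes of mitochondrial transport, shuttles and NAD metabolism were listed, and 23 were tested on 430A by 41 probe sets. Their median log2 fold change was -0.02, and 1 probe set of the 41 was called, a share near the 2.93% over all tested 430A probe sets. This was 1456573_x_at of Nnt, the transhydrogenase that passes hydride between NADH and NADP+. Its signals were 493 and 369 in ILS mice 48 and 51 and 211 and 104 in ISS mice 55 and 56, higher in ILS without overlap. The ISS values were dim, and the signal was at least 2.04-fold higher in ILS (log2 fold change 1.53 ± 0.32, limma adjusted p = 0.0472). Another Nnt probe set, 1416105_at, differed from it in strain effect by -1.24 (limma adjusted p = 0.0443). Of the 4 brightest, Mdh1 1448172_at gave -0.34, Mdh2 -0.04, Vdac1 1436992_x_at -0.21 and Got1 -0.18, and none was called. The Mdh1 probe sets did not run together, since 1436834_x_at gave 0.45 and 1454925_x_at gave 0.41, neither of them called. The strain effect at 1436834_x_at minus that at 1448172_at was 0.79, and that at 1448172_at minus that at 1454925_x_at was -0.76 (log2 scale, limma adjusted p = 0.0181 for both). With the Nnt pair these were the 3 called of 27 partner pairs of 430A, against 3.93% of all pairs of the chip. Both Mdh1 pairs share 1448172_at and are not separate results. On 430B 10 of the genes were tested by 13 probe sets, with a median of 0.09, and limma called 0, against 0.48% of all. Of the 4 brightest, Nmnat2 gave 0.31, Nadk2 1437287_at -0.23, Gpd2 1428323_at -0.17 and Cpt1c -0.000767. Further tested 430B probe sets were positive, with 0.17 at Nadk2 1453422_a_at, 0.16 at Gpd2 1428324_at and 0.41 at Gpd2 1452741_s_at.

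Some measures outside the family moved with strain. On 430A arrays correlated across probe sets at 0.975 and 0.980 within strains and at 0.938 to 0.962 between them. The gap was smaller on 430B, with 0.944 and 0.959 within strains and 0.926 to 0.942 between them. The 18S 3′ control had signals of 538 and 801 in ILS and of 147 and 142 in ISS on 430A, where the ISS values were dim, and was 3.80-fold higher in ILS on 430B. The 3′ to 5′ ratios of Gapdh and actin overlapped between strains on both chips. Of 11 microglial probe sets of 430A from 8 genes, 4 were called higher in ILS, against 1.61% of all tested probe sets. These were C1qb 1417063_at and those of C1qc, Ctss and Laptm5. Another C1qb probe set, 1434366_x_at, was not called (0.57, limma adjusted p = 0.184). The 11 had a median log2 fold change of 0.55 and a summed signal of 8309 to 8365 in ILS and 5385 to 6389 in ISS. On 430B the 2 microglial probe sets, both of Laptm5, gave -0.00194 and 0.27 and were not called. Of 12 Purkinje cell probe sets of 430A from 8 genes, 2 were called higher in ISS, against 1.33% of all tested probe sets. These were of Ppp1r17 and Icmt. The 12 had a median of -0.46, with sums of 35149 to 36637 in ILS and 41531 to 51471 in ISS. The Purkinje marker Car8 ran the other way at 1424958_at (0.97, limma adjusted p = 0.0514). Its brighter 430A probe set, 1427482_a_at, overlapped between strains and gave 0.04 (limma adjusted p = 0.895). On 430B 6 of 8 Purkinje cell probe sets were positive (median 0.28), against 49.9% of all tested probe sets. There Car8 1457904_at was called higher in ILS (1.51, limma adjusted p = 0.0137), as were 0.195% of all. Of the 3 astrocyte probe sets of 430B, 1 was called higher in ISS, against 0.284% of all, Gfap 1440142_s_at (-2.37, limma adjusted p = 0.00421). Of the 12 astrocyte probe sets of 430A 0 were called and 3 were positive (median -0.12). There Gfap gave -1.05 at 1426508_at (limma adjusted p = 0.0618) and -0.21 at 1426509_s_at (0.702). Of 11 endothelial and pericyte probe sets of 430A 0 were called and 9 were positive (median 0.29), against 48.3% of all. Of 12 granule cell probe sets 0 were called and 3 were positive (median -0.18). Limma called 1 of 19 oligodendrocyte probe sets, Cldn11 (list median 0.05), and 1 of 8 of choroid plexus and meninges, Dcn (list median 0.13). Both were higher in ILS, as were 1.61% of all. Markers of cerebellum were present on 430A, where 10 of the 12 listed genes passed the filter. The part of these measures in the family's values was not tested.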

How the data were processed

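Total RNA from 4 cerebella was labelled with biotin and hybridised to 430A and 430B arrays, 8 in all, per the labels. The deposited values are linear signal intensities made by the authors with MAS5, per the submitters' processing notes. The version of MAS5 is not given in the sources used. They hold no detection calls. Other files deposited by the authors give chip type, fluidics station and scan order, per the file headers.

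The 2% trimmed mean of every array was set to 500, its 64 control probe sets were removed, and values were taken as log2. Probe sets with a mean log2 value at or above the chip median (signals of 218 on 430A and 231 on 430B) were tested. Strains were compared chip by chip with limma 3.58.1 (R 4.3.3; lmFit, eBayes with an intensity trend, two-sided), with Benjamini-Hochberg adjustment over the chip. Each test had 2 residual degrees of freedom. The p-values weigh the strain difference against the spread between these mice, and rest largely on the variance pooled over probe sets (prior degrees of freedom of 6.22 and 7.31). Within-mouse log2 ratios of probe sets of 1 gene were fitted likewise, over all such pairs of the chip. A strain was dim where both values lay below their array medians, and the fold is then a bound. The steps were tested on simulated data.

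Named members were the called probe sets, all probe sets of Slc25a51 and of genes with a called one, the 6 smallest p-values and 6 largest log2 fold changes per chip, and the brightest of each role. Partner genes were the called and the 4 brightest. Probe sets of Slc25a30, Slc25a44, Ucp1 and Ucp3 were added after their values were seen. So were further ones of Slc25a4, Slc25a5, Slc25a20, Slc25a25, Slc25a27, Slc25a32, Slc25a39, Nnt, Mdh1, Nadk2, Gpd2 and Car8. Members, gene lists and marker lists were chosen with earlier results of these data known. Genes came from probe sets with 1 symbol in the platform annotation. Alternatives were equal medians, quantile normalization, a floor at the 20th percentile, no filter, a filter at the 75th percentile, no trend, a robust fit, joint adjustment, the station as a block on 430B and leaving out each mouse.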

Additional observations from a re-analysis of the deposited data

How the results depend on the processing

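The 430A total of 332 called probe sets was 1158 with equal array medians (19.3% higher in ILS, against 54.8%), 136 with no filter, 163 with a filter at the 75th percentile, 208 with joint adjustment and 115 to 626 without 1 mouse. The 430B total of 54 was 13 with no filter, 4 without the intensity trend, 94 with joint adjustment, 24 with the station as a block and 25 to 67 without 1 mouse. The 3 called 430A members became 1 with no filter or no trend and 0 to 2 without 1 mouse, and the 3 called family pairs became 1 with quantile normalization, the 75th percentile filter or no trend and 1 to 8 without 1 mouse. With equal medians the called members were Slc25a51 1433816_at, Slc25a14 and Slc25a39 1439410_x_at (-0.54, limma adjusted p = 0.0268). On 430B 0 members were called under every setting run. The cause of these changes was not tested.

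Among the members named by the rule, changes of sign were seen only at uncalled probe sets. They were Slc25a20 (-0.0369) and Slc25a28 (-0.0132) with equal medians, and Slc25a20 (-0.00414) and Slc25a23 (0.0285) with quantile normalization. Without 1 mouse the log2 fold changes ran from -0.14 to 0.38 at Slc25a20, -0.11 to 0.0672 at Slc25a23, -0.26 to 0.0476 at Slc25a11, -0.29 to 0.0357 at Slc25a46, -0.14 to 0.45 at Slc25a25 1454284_at and -0.10 to 0.34 at Slc25a27 1440090_at. These fits assume that a strain's single remaining array varies as the other strain's arrays do. No paired analysis was possible because the strains share no replicate numbers. The station block was not run on 430A, where each station held 1 strain, and joint adjustment was not applied to pairs. Low signal limits the 30 untested members.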
